A study of Mus musculus with 20 samples.

Results

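The response of the left ventricle 28 days after the onset of pressure overload was described from 4 of the 20 miRNA arrays of the study, the 2 arrays labelled TAB day 28 and the 2 labelled sham day 28. The arrays were taken by these labels, and every one of the 928 mouse miRNAs that passed a filter on spot flags was followed, out of 1086 mouse miRNA probes. In transverse aortic banding (TAB) a band narrows the aortic arch, so that the left ventricle ejects against a raised pressure, whereas sham-operated mice have surgery without the band. All groups were male C57BL/6J mice labelled as 8 weeks old, weighing 20 to 25 g and anaesthetized with isoflurane, with no engineered allele named in the labels. TAB and sham arrays of days 3, 5, 7 and 14, 2 of each per day, gave the earlier time course. How many hearts supplied an array is not given in the labels, and the methods treat repeated arrays as technical replicates, so the 2 arrays of a group counted as 1 sample. No slide or batch is named either, so surgery and anything else that the arrays of 1 group shared cannot be told apart. Because whole ventricle was measured, fewer cells of a type and less RNA per cell cannot be told apart.

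MiRNAs are short RNAs that pair with messenger RNAs, mainly through the seed near their 5′ end, and lower the stability or translation of those messengers. In a pressure-overloaded heart the muscle cells enlarge, fibroblasts deposit matrix and, in rodents, the slow myosin heavy chain gene Myh7 is switched back on. MiR-208a, miR-208b and miR-499 lie inside the myosin genes Myh6, Myh7 and Myh7b, and are made from the transcripts of these host genes.

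The mature sequences of the miRNAs on which the results turn are given from RefSeq (assembly GRCm38.p6), 5′ to 3′, with the seed, bases 2 to 8, in capitals. Names on the array follow an older miRNA release, so 60 miRNAs were looked up under their current names and 54 had a mature sequence. The first set holds miRNAs that were higher after TAB on day 28, ordered so that shared seeds stand together: miR-195, miR-497 and miR-16 have 1 seed, let-7g and miR-98 have 1, and miR-146a and miR-146b have 1, while miR-208b and miR-499 share bases 2 to 7.
miR-208b: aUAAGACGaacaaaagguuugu
miR-499: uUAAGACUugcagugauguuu
miR-195: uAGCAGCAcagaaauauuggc
miR-497: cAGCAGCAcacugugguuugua
miR-16: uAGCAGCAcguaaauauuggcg
let-7g: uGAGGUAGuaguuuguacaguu
miR-98: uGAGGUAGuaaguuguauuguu
miR-146a: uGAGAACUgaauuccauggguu
miR-146b: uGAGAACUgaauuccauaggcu
miR-23a: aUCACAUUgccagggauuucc
miR-27b: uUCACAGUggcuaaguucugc
miR-199a-3p/miR-199b: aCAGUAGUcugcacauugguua
miR-199a-5p: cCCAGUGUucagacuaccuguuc
miR-21: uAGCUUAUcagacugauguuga

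The second set holds miRNAs that were lower after TAB relative to day 3. Of the 23 miRNAs in that group, described further on, 22 had a mature sequence, with a G+C content between 45.5% and 100% and a median of 64.4%. Only 8 of the 13 miRNAs that went the other way had one, with a median of 40.9% (30.4% to 65%). The 24 other miRNAs looked up had a median of 45.5% (31.8% to 85.7%). These groups are small and were picked by their results, so base composition was not tested.
miR-3102-5p.2: gGUGGUGCaggcaggagagcc
miR-762: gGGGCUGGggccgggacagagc
miR-744: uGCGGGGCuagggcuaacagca
miR-1195: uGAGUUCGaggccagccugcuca
miR-667*: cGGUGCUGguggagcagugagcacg
miR-92a-2*: aGGUGGGGauugguggcauuac
miR-5126: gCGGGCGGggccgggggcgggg

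In the RefSeq annotation miR-208b lay at chr14:54975710-54975731 on the minus strand, within the span of Myh7, and miR-499 at chr2:155622893-155622913 on the plus strand, within Myh7b. MiR-497 and miR-195 were neighbours on chr11, at chr11:70234730-70234751 and chr11:70235062-70235082, both on the plus strand. MiR-3102-5p.2 lay at chr7:100882367-100882387 on the minus strand, within the span of Arhgef17, and miR-762 at chr7:127708534-127708555 on the plus strand, within the span of Bcl7c. The strand of the spanning genes was not compared.

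The TAB arrays were the dimmer pair before normalization. The upper quartile of the raw spot medians was 251 and 233 on the TAB day 28 arrays and 336 and 303 on the sham day 28 arrays, with 568 and 525 miRNAs found against 603 and 570, where found means that at least 2 of the 3 spots carried no negative flag. On day 28, 486 miRNAs were found on all 4 arrays and 272 on none. Values below are log2 intensities after quantile normalization of all 20 arrays, which gives every array the same distribution, so a difference is relative to the bulk of the miRNAs. Repeated arrays lay close together: the SD between the 2 arrays, pooled over all miRNAs, was 0.09 for TAB and 0.09 for sham on day 28. Both sham day 14 arrays stood apart: on the first principal component of the 20 arrays (62.4% of the variance) they were at 1.31 and 2.16, the other 8 sham arrays between 6.78 and 8.06, and the 10 TAB arrays between -7.66 and -4.92. The TAB minus sham differences of day 14 had the weakest correlation with those of day 28 across miRNAs (r = 0.57, against 0.781 to 0.839 for the other days). All day 14 differences given here use those sham arrays, whose part in them was not tested. The repeat-array test, which takes its error from such pairs, compares these RNA samples and not the surgeries in general. The 10-sample fit first averages the 2 arrays of a group and takes its error from the spread of the TAB minus sham difference over days 3, 5, 7 and 14, which leaves 3 residual degrees of freedom and includes the outlying day 14. Both are limma tests, 2-sided, with Benjamini-Hochberg adjustment over all 928 miRNAs and a threshold of 0.05.

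On day 28 the miRNAs most raised after TAB were miR-199a-3p/miR-199b, miR-21, miR-208b, miR-199a-5p and miR-27b, each with an intensity between 4.01 and 5.07 times that of sham. Background was not subtracted, and the raw median of empty spots was 66 to 73 on these 4 arrays. Ratios of dim miRNAs are therefore compressed, and their ranks against bright ones are ranks of intensity ratios only. Those most lowered were miR-3102-5p.2, miR-5115 and miR-1896, between 2.83-fold and 2.99-fold below sham. Raised differences reached further than lowered ones: 49 miRNAs were above 1 on the log2 scale and 17 below -1. In the repeat-array test 168 miRNAs were up-regulated (18.1% of those tested) and 215 down-regulated (23.2%). The 10-sample fit called 19 up (2.05%) and 16 down (1.72%), with 225 miRNAs at an unadjusted p under 0.05. All 19 and all 16 were also called in the repeat-array test and were found on both arrays of the higher group.

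The counts depended on the scaling and on single days. Scaled to each array's 75th percentile, the median of all day 28 differences was 0.31 in place of -0.03 and the repeat-array test called 412 up and 135 down, so 75.3% of calls were up in place of 43.9%. Without any scaling it called 86 up and 293 down (22.7% up). With separate targets for TAB and sham on the deposited processed table it called 578 up and 138 down (80.7% up). Leaving out day 3 left the 10-sample fit with 1 up and 0 down, leaving out day 5 with 7 and 0, and leaving out day 7 with 2 and 0. Leaving out day 14, whose sham arrays stood apart, gave 46 and 41, among them all 19 and 16. The counts were 9 up and 3 down without the second TAB day 3 array, 21 and 8 without the first, 17 and 10 without the first sham day 3 array, 14 and 4 without the first TAB day 28 array, 15 and 2 without the first array of every group, and 4 and 1 without the second. Under the 75th percentile scaling 67.8% of the 10-sample calls were up in place of 54.3%, and after a normexp background correction 73.1% were, with 19 up and 7 down. Separate targets gave 435 up and 56 down there (88.6% up). The repeat-array count of down-regulated miRNAs was 139 without the first TAB day 28 array and 139 without the second sham day 28 array. Of the 35 calls of the 10-sample fit, 0 held in all 17 alternative settings. MiR-199a-3p/miR-199b lost its call in 1 of them, miR-26b in 6, miR-199b* in 9 and miR-762 in 10. Some misses are given below with a value without day 14. Of these, miR-21, miR-27b and miR-5115 passed in 4 of the 17 settings and miR-1896 in 6.

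**Figure D1:**
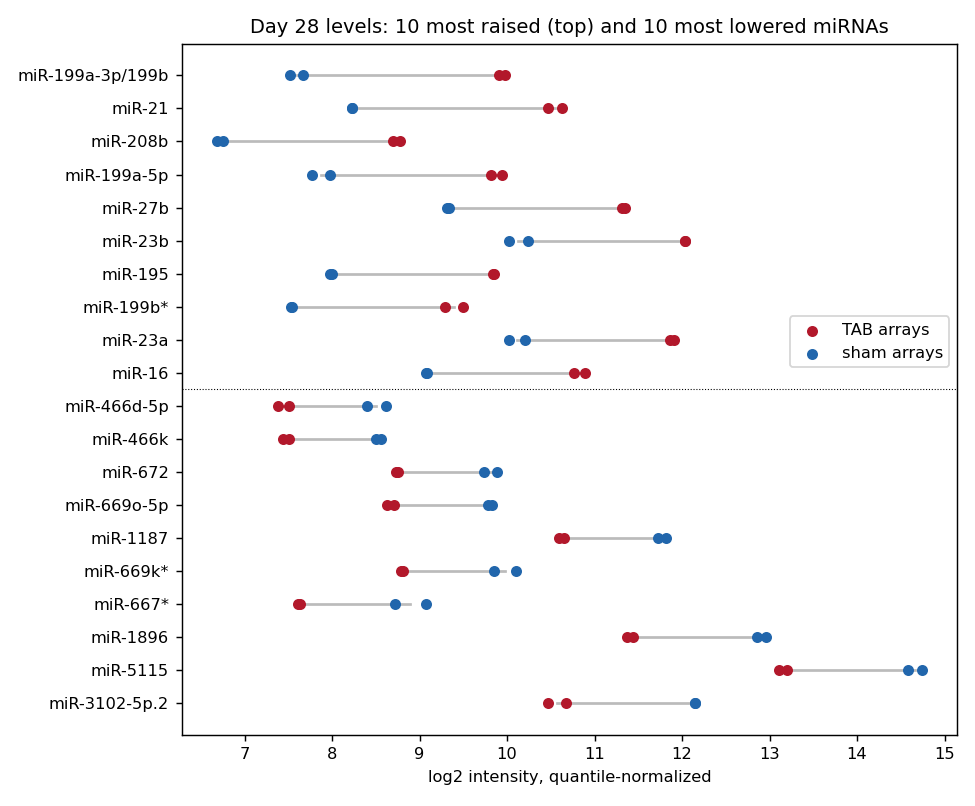
Quantile-normalized log2 intensity (x axis) of the 10 most raised miRNAs (top) and the 10 most lowered (bottom) on day 28. Each point is 1 array, red for TAB and blue for sham, and the grey line joins the group means. In all 20 rows the TAB pair lies on one side of the sham pair.

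The miR-199 group led the raised miRNAs. MiR-199a-3p and miR-199b share a probe and are hypoxia-responsive miRNAs of the heart. Their level was 9.98 and 9.90 on the TAB arrays and 7.52 and 7.67 on the sham arrays. Neither TAB array came near either sham array, and the difference was 2.34 ± 0.13 (SE of the 10-sample fit, adjusted p = 0.00912). MiR-199a-5p, from the other arm of the same hairpin, measured 9.95 and 9.82 against 7.98 and 7.77, a difference of 2.01 ± 0.15 (adjusted p = 0.0141). MiR-199b* measured 9.29 and 9.50 against 7.54 and 7.55, a difference of 1.85 ± 0.30 (adjusted p = 0.0488). Both TAB arrays were higher for both arms of the family. MiR-214, which is transcribed together with the miR-199a copy inside Dnm3, did not pass either test, with a difference of 0.16 (repeat-array adjusted p = 0.345).

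MiR-21, which is abundant in cardiac fibroblasts under stress, measured 10.63 and 10.47 on the TAB arrays and 8.23 and 8.23 on the sham arrays. The 5.0-fold separation on day 28, 2.32 on the log2 scale, passed the repeat-array test (adjusted p = 2.84e-08) and not the 10-sample fit (2.32 ± 0.52, adjusted p = 0.0857), which it passed without day 14 (adjusted p = 0.0381). The difference had been 2.76, 3.56, 3.56 and 2.23 on days 3, 5, 7 and 14. Between day 3 and day 28 miR-21 fell by 0.78 in the TAB arrays (repeat-array adjusted p = 0.0035), to below all 8 earlier TAB arrays, which ranged from 11.18 to 11.99. The change in its TAB minus sham difference between these days did not pass the repeat-array test. Across all miRNAs 5.28% lay below all earlier TAB arrays on day 28. Its passenger strand miR-21* was 0.58 higher after TAB on day 3 and 0.07 higher on day 28, and was found on the TAB arrays of day 28 but not on the sham arrays.

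The list of the miR-23, miR-27 and miR-24 clusters, which regulate growth and angiogenic pathways, held 5 miRNAs and no passenger strand. All 5 were called up in the repeat-array test, where 18.1% of all miRNAs were. The passenger strands miR-24-1* and miR-24-2* were called up as well, and miR-23a* was called down. MiR-27b measured 11.34 and 11.31 against 9.31 and 9.34, and miR-23b 12.04 and 12.04 against 10.24 and 10.02. Neither miRNA had overlapping groups. The differences were 2.01 ± 0.43 (10-sample adjusted p = 0.0804) for miR-27b and 1.91 ± 0.24 (adjusted p = 0.0373) for miR-23b. Without day 14 miR-27b passed as well (adjusted p = 0.0381). MiR-23a, miR-27a and miR-24 differed by 1.77, 1.74 and 1.52. The sequences of miR-27a and miR-27b are near-identical, so the array cannot be taken to tell these 2 apart. The median of the 5 was 1.77, where the median over all miRNAs was -0.03, and it had been 1.34 on day 3.

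All 6 measured miRNAs of the miR-15 and miR-16 family, which restrain the cell cycle and cardiomyocyte proliferation, were called up in the repeat-array test, as they were on day 3. The shares called up over all miRNAs were 18.1% on day 28 and 17.7% on day 3. MiR-195 measured 9.85 and 9.84 on the TAB arrays and 8.00 and 7.97 on the sham arrays. Both TAB values were above all 8 earlier TAB arrays, and both sham values were below all 8 earlier sham arrays. The former held for 5.06% of all miRNAs and the latter for 2.8%. The difference was 1.86 ± 0.12 in the 10-sample fit (adjusted p = 0.0117). MiR-497, made from the same primary transcript, differed by 1.68 ± 0.15 (adjusted p = 0.0221), miR-16 by 1.74 ± 0.49 (adjusted p = 0.13) and miR-15b by 0.94 (adjusted p = 0.0415). The family median was 0.83 on day 3 and 1.58 on day 28, with a higher difference on day 28 in all 6.

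The let-7 family with miR-98, which shares its seed and targets growth-promoting genes such as those of the Ras family, went from 5 of 9 called up on day 3 to 9 of 9 on day 28, where 17.7% and 18.1% of all miRNAs were. The 9 differences ranged from 1.00 to 1.62 with a median of 1.29, against 0.56 on day 3. MiR-98 measured 10.94 and 10.79 against 9.27 and 9.23, a difference of 1.62 ± 0.21 (10-sample adjusted p = 0.0397). It differed by 1.57 already on day 3, whereas let-7d went from 0.28 to 1.03 and let-7a from 0.51 to 1.31. None of the 9 passed the repeat-array test of the change. Whether the probes of these 9 also bind each other's miRNA was not tested, so the 9 calls may not be separate measurements.

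Other families that were up as a whole in the repeat-array test were miR-26 (2 of 2), miR-29 (3 of 3), miR-34 (3 of 3), miR-101 (2 of 2) and miR-103 with miR-107 (2 of 2). For these and the lists below, the shares called up over all miRNAs were 18.1% on day 28 and 17.7% on day 3. MiR-29 represses collagen genes and miR-26 restrains hypertrophic growth, and both are usually listed among miRNAs that decrease in hypertrophy. MiR-26b measured 10.10 and 10.16 against 8.41 and 8.52, a difference of 1.66 ± 0.25 (10-sample adjusted p = 0.0463). MiR-29a, miR-29b and miR-29c differed by 0.43, 1.25 and 0.79. Of 15 miRNAs known to decrease in hypertrophy or to oppose it, 12 were called up and none down, compared with 8 up on day 3. Of 15 known to increase in hypertrophy, 13 were called up on each day, with medians of 1.10 on day 3 and 1.77 on day 28. The exceptions were miR-212-3p (-0.10) and miR-214 (0.16). Among members of the miR-17 cluster and its paralogous clusters, which drive proliferation, 11 of 12 were up and miR-18b was down (-0.23).

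Other miRNAs raised in the 10-sample fit included let-7f (1.29, adjusted p = 0.0463), miR-1949 (1.20, adjusted p = 0.0278) and miR-126-5p (1.14, adjusted p = 0.0373). The passenger strands miR-24-1* and miR-24-2* differed by 0.71 and 1.13, miR-140 and miR-140*, known for their part in cartilage, by 1.01 and 1.07, and miR-152 by 1.19. MiR-181c differed by 0.75, and 3 of its 4 family members were up in the repeat-array test, where 18.1% of all miRNAs were. MiR-140 measured 7.96 and 7.88 on the TAB arrays and 6.89 and 6.93 on the sham arrays, with both TAB values above all 8 earlier TAB arrays. In 4 of 5 members of the miR-99, miR-100 and miR-125 group the repeat-array test also called a rise, with a median of 1.19 against 0.81 on day 3.

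MiR-3102-5p.2 measured 10.47 and 10.67 on the TAB arrays and 12.15 and 12.15 on the sham arrays. Its difference of -1.58 ± 0.19 (10-sample adjusted p = 0.0373) was the most negative of the 928. MiR-1896 measured 11.37 and 11.44 against 12.86 and 12.95, which is 2.83-fold lower (10-sample adjusted p = 0.0548, and 0.0441 without day 14), with a difference of -1.51 already on day 3. MiR-5115 differed by -1.51 (adjusted p = 0.0631, and 0.0381 without day 14). MiR-667*, which comes from the imprinted Dlk1-Dio3 locus, measured 7.61 and 7.64 against 8.72 and 9.07, a difference of -1.27 ± 0.17 (adjusted p = 0.0397). In each of these the TAB and sham arrays did not overlap, as held for 41.2% of all miRNAs with TAB below and for 33.5% with TAB above.

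Below these in size, the 10-sample fit called miR-3474, miR-466i-5p, miR-1188, miR-5122, miR-1186, miR-691, miR-762, miR-23a*, miR-1899, miR-1943, miR-1904, miR-193b*, miR-188-5p and miR-185* down, with differences between -0.99 and -0.49. Several were already low on day 3. MiR-3474 measured 10.18 and 10.10 against 11.05 and 11.21 on day 28 and differed by -0.90 on day 3. MiR-691 was not, with 0.03 on day 3 and -0.80 on day 28. It measured 8.83 and 9.07 on the TAB arrays and 9.85 and 9.64 on the sham arrays, and its change of -0.83 did not pass the repeat-array test (adjusted p = 0.239). MiR-23a* is the passenger strand of miR-23a and moved opposite to it, at -0.72 where miR-23a was at 1.77.

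The other 6 of the 10 most lowered were miR-669k*, miR-1187, miR-669o-5p, miR-672, miR-466k and miR-466d-5p, with differences between -1.18 and -1.06. Both miR-669 and both miR-466 members of that set belong to repeat-derived families (with miR-297 and miR-467) whose large cluster lies inside Sfmbt2. Their sequences are near-identical, so the array cannot be taken to tell them apart. Of 67 such probes 44 were called down and 1 up on day 28, against 49 down on day 3. Their median difference was -0.55 on day 28 and -0.72 on day 3, and 51 of 67 moved upward between the days. The exception in direction was miR-669h-5p, at 8.53 and 8.56 on the TAB arrays against 7.87 and 7.81 on the sham arrays, a difference of 0.71. The list of the Dlk1-Dio3 cluster held 35 miRNAs and left out miR-667*, which was called down. Of the 35, 17 were found on no day 28 array, 3 were up and 4 down, compared with 9 up and 3 down on day 3. Over all miRNAs 18.1% were up and 23.2% down on day 28, and 17.7% up and 17.8% down on day 3.

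Markers of heart muscle were mostly raised on day 28. Of 7 miRNAs, 5 were called up and none down on day 28, against 2 up and 1 down on day 3. The shares of all miRNAs called up and down were 18.1% and 23.2% on day 28, and 17.7% and 17.8% on day 3. The median difference was 0.63 on day 28 and 0.13 on day 3, and the change was above 0 in 7 of 7. MiR-1a, which with miR-133 governs muscle differentiation, measured 15.37 and 15.00 on the TAB arrays and 14.74 and 14.58 on the sham arrays. Its difference of 0.52 followed -0.23, -0.37 and -0.13 on days 5, 7 and 14. MiR-133a measured 14.10 and 14.24 against 13.03 and 13.54, a difference of 0.88, after 0.33, -0.22 and -0.55 on those days. For both miRNAs the TAB pair lay above the sham pair on day 28. Neither passed the 10-sample fit (adjusted p = 0.169 for both), and the change since day 3 did not pass the repeat-array test (adjusted p = 0.41 and 0.393).

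The myosin-gene miRNAs parted from each other. MiR-208b measured 8.77 and 8.69 on the TAB arrays and 6.69 and 6.76 on the sham arrays. This was a 4.0-fold difference in intensity without background subtraction (2.01 ± 0.16, 10-sample adjusted p = 0.0155). MiR-499 measured 10.36 and 10.39 against 9.29 and 9.36, a difference of 1.06 ± 0.25 (adjusted p = 0.094, repeat-array adjusted p = 2.76e-05). It had risen by 0.59 in the TAB arrays since day 3 (repeat-array adjusted p = 0.0185). The change in its TAB minus sham difference since day 3 did not pass that test. MiR-208a-3p measured 12.59 and 12.48 against 12.59 and 12.42. The first 2 did not overlap between groups, whereas the miR-208a-3p arrays did (difference 0.03, repeat-array adjusted p = 0.85), and its sign turned in 2 of the settings that left out 1 array. On day 3 miR-208a-3p had been 0.49 lower after TAB (repeat-array adjusted p = 0.0067).

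Markers of white blood cells, red blood cells and vessels were followed beside these. All 7 white blood cell miRNAs were called up on day 28, compared with 3 of 7 on day 3, with medians of 0.41 and 0.31. The shares called up over all miRNAs were 18.1% on day 28 and 17.7% on day 3. Their summed level, on the log2 scale, was 10.63 and 10.57 on the TAB arrays and 9.90 and 9.95 on the sham arrays. Within the list the members moved apart. The neutrophil and myeloid miRNA miR-223 was 1.45 higher on day 3 and 0.59 higher on day 28. It fell by 0.97 in the TAB arrays (repeat-array adjusted p = 0.0116). MiR-146a, induced by NF-kappaB signalling, went from 0.34 to 1.36. The change in the TAB minus sham difference since day 3 passed the repeat-array test for miR-146a and not for miR-223. Of 4 red blood cell miRNAs 2 were up, and the summed level was 10.58 and 10.41 against 10.15 and 9.93. Of 4 vessel miRNAs 3 were up, and the summed level was 13.85 and 13.86 against 13.11 and 13.02. The part of these cell markers in the results above was not tested. Of 10 markers of other tissues 6 were found on no day 28 array, 2 were called up (miR-128 and miR-203) and 1 down (miR-206). The count called up was near the share over all miRNAs, 18.1%, and the share called down over all miRNAs was 23.2%.

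**Figure D2:**
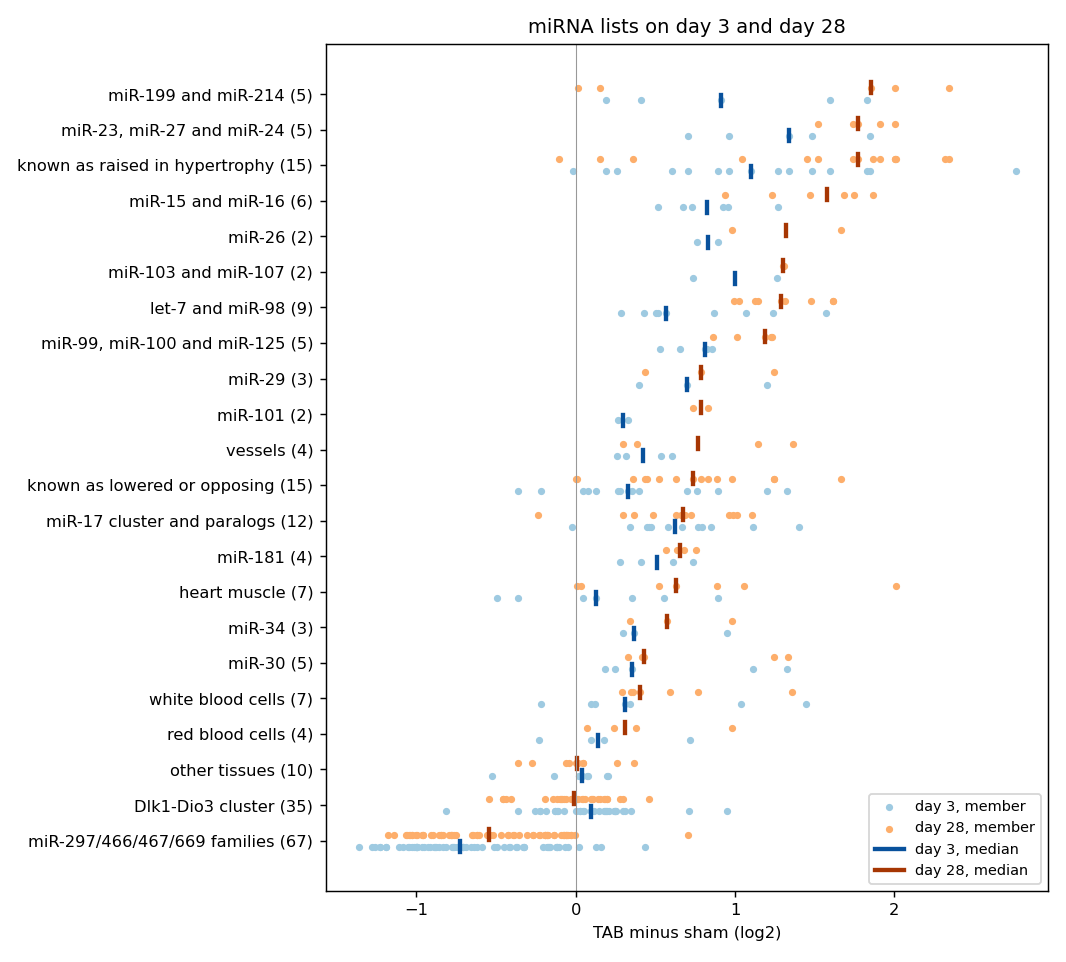
TAB minus sham difference on the log2 scale (x axis) for the members of each miRNA list, with the number of members in parentheses (y axis), on day 3 (blue) and day 28 (orange). Points are miRNAs and vertical bars are list medians, for example 0.13 and 0.63 for heart muscle and -0.72 and -0.55 for the repeat families.

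Relative to the median of all miRNAs, the 4 lists named next kept their direction under the 75th percentile scaling and with separate targets. The day 28 median of the heart muscle list exceeded it by 0.66 with quantile normalization and by 0.70 with 75th percentile scaling. For let-7 and miR-98 the values were 1.31 and 1.26, for white blood cells 0.43 and 0.35, and for the repeat families -0.52 and -0.71. Red blood cells stood 0.33 and 0.18 above it. Values without scaling, taken relative to their median, equal those of the 75th percentile scaling, which only shifts each array by a constant.

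How the day 28 pattern compared with day 3 was examined over all 928 miRNAs. No array is shared between the days. Most of the response was already there: the differences of the 2 days correlated across miRNAs with r = 0.839 and rho = 0.787, and 79.6% had the same sign, where miRNAs are not independent replicates. Those up-regulated on both days in the repeat-array test numbered 123, which is 73.2% of the day 28 calls and 75% of the day 3 calls. Those down-regulated on both days numbered 129, which is 60% of the day 28 calls and 78.2% of the day 3 calls. A further 45 were called up on day 28 only, but 37 of these already had a difference above 0 on day 3 and 3 passed the test of the change. Of 86 called down on day 28 only, 62 were already below 0 and 10 passed the test of the change. No miRNA was up on day 28 and down on day 3, and 4 were down on day 28 and up on day 3. The spread of the differences over miRNAs was wider on day 28 (SD 0.51) than on day 3 (SD 0.44). It was already near the day 28 value on day 5 (SD 0.50) and day 7 (SD 0.48), and was 0.35 on day 14.

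**Figure D3:**
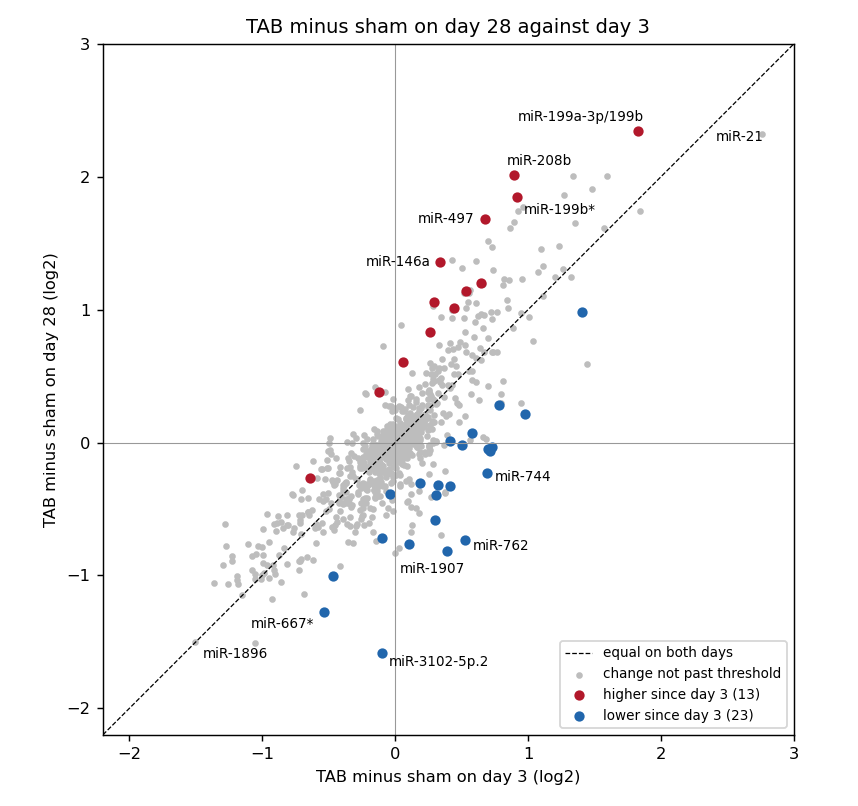
TAB minus sham difference (log2) on day 28 (y axis) against day 3 (x axis) for 928 miRNAs, 1 point each. The dashed line marks equal differences. Red points (13) were higher and blue points (23) lower relative to day 3 in the repeat-array test, and grey points did not pass it.

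Few single miRNAs changed between the days by more than the arrays' spread. In the repeat-array test of the change, the day 28 difference minus the day 3 difference, 13 miRNAs were higher (1.4%) and 23 lower (2.48%). With the spread between days as error no miRNA passed: 0 were called in the 10-sample fit, with 27 at an unadjusted p under 0.05, and 0 for day 28 against the mean of days 3 to 14, with 54 at an unadjusted p under 0.05. The repeat-array counts ranged from 4 to 7 higher and from 8 to 14 lower when the second TAB day 3 array, either sham day 3 array or any one of the day 28 arrays was left out, and they were 18 and 33 without the first TAB day 3 array. They were 20 and 26 without day 14. Scaling to the 75th percentile left 5 higher and 9 lower, and with no scaling 66 were higher and 0 lower, at a median change of -0.22 and 0.24 in place of 0.00. The processed table gave 29 higher and 255 lower, so 10.2% of its calls were higher in place of 36.1%. By the paper's methods its technical replicates had been quantile-normalized together, so its repeat-array error is not like that of the other settings. Relative to the median under the 75th percentile scaling, all 36 kept their direction. Values relative to the median are the same without scaling, because the 75th percentile scaling only shifts each array by a constant.

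MiR-208b had the largest rise. Its TAB level was 7.65 and 7.56 on day 3 and 8.77 and 8.69 on day 28, above all 8 earlier TAB arrays, which reached 8.33. Its sham level was 6.75 and 6.67 on day 3 and 6.69 and 6.76 on day 28. The TAB pair moved by 1.13 (adjusted p = 2.33e-05) and the sham pair by 0.01 (adjusted p = 0.982). The TAB minus sham difference was 0.89, 0.88, 0.88, 1.25 and 2.01 on days 3, 5, 7, 14 and 28, flat over the first week and then increasing. The change since day 3 was 1.12 ± 0.14 (SE of the repeat-array test, adjusted p = 0.000481; unadjusted p = 0.0121 in the 10-sample fit). Of the 36 changes it alone kept its call under all 19 alternative settings.

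MiR-497 measured 8.72 and 8.52 on the day 3 TAB arrays and 9.31 and 9.42 on day 28. It lay above all 8 earlier TAB arrays, while sham went from 7.81 and 8.09 to 7.56 and 7.80. The change was 1.01 ± 0.26 (adjusted p = 0.046). MiR-199b* changed by 0.94 ± 0.16 (adjusted p = 0.00416), although its day 5 difference, 1.81, was nearly that of day 28, 1.85, so that day 3 was the low point. MiR-146a and miR-146b, both feedback inhibitors of inflammatory signalling with 1 seed, changed by 1.02 ± 0.22 (adjusted p = 0.0185) and 0.76 ± 0.15 (adjusted p = 0.0116). Their differences were 1.26 and 1.05 on day 5, 0.44 and 0.57 on day 7, and 0.05 and 0.35 on day 14. The sequences of miR-146a and miR-146b are near-identical, so the array cannot be taken to tell them apart. On day 14 the outlying sham arrays measured 8.29 and 8.23 for miR-146a, above all other sham arrays, while TAB measured 8.50 and 8.11.

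The vessel miRNA miR-126-5p, from the endothelial gene Egfl7, measured 7.22 and 7.31 on the day 3 TAB arrays and 8.07 and 8.11 on day 28. Sham arrays went from 6.70 and 6.77 to 6.92 and 6.98. Its TAB values of day 28 were above all 8 earlier TAB arrays, and its difference increased from 0.53 on day 3 through 0.75 and 0.81 on days 7 and 14 to 1.14. The change was 0.61 ± 0.12 (adjusted p = 0.0116). Its partner strand miR-126-3p differed by 0.61 on day 3 and 1.36 on day 28, a change that did not pass (adjusted p = 0.269). MiR-140 (0.57), miR-101a/miR-101c (0.57), miR-1949 (0.56) and miR-335-5p (0.55) completed the 10 largest rises. MiR-335-5p was not found on the sham day 28 arrays and was at least 1.51-fold higher after TAB there, with the sham level set at the lowest found signal. The other 3 were miR-199a-3p/miR-199b (0.52), miR-3473b (0.50) and miR-466o-3p (0.37). MiR-3473b was at the scanner ceiling of 65535 on both sham day 3 arrays, so its level there is a lower bound, and miR-466o-3p was lower after TAB on both days.

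**Figure D4:**
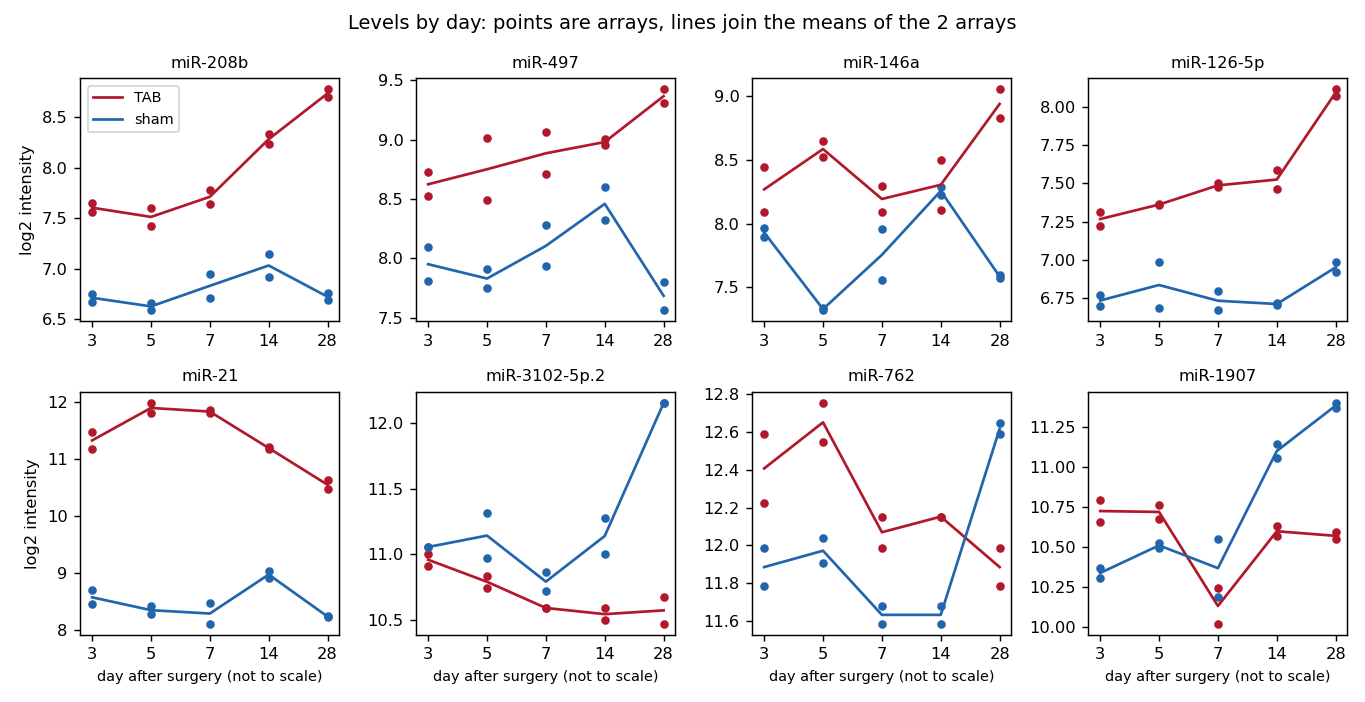
Quantile-normalized log2 intensity (y axis) of 8 miRNAs on days 3, 5, 7, 14 and 28 (x axis, not to scale), TAB in red and sham in blue, points for single arrays and lines through the means of the 2 arrays. MiR-208b and miR-126-5p climb in TAB, and miR-3102-5p.2 and miR-762 rise in sham on day 28. MiR-21 in TAB is highest on days 5 and 7 and lowest on day 28.

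The falls lay mostly in the sham arm. For 18 of the 23 miRNAs that were lower relative to day 3, the shift between the days was larger in sham than in TAB, and it passed the repeat-array test in sham for 18 and in TAB for 6. For 17 of the 23 both sham day 28 arrays were above all 8 earlier sham arrays, which held for 9.38% of all miRNAs. Among the 13 that were higher, the TAB shift was the larger in 11 and passed in 10, while the sham shift passed in 2, and 7 had both TAB day 28 arrays above all 8 earlier TAB arrays (5.06% of all miRNAs). Both sets were selected on these same day 28 and day 3 values. A high share of extreme day 28 levels is therefore partly fixed by the selection, and setting it beside all miRNAs is not a test. The cause of the shift in the sham arrays was not tested.

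**Figure D5:**
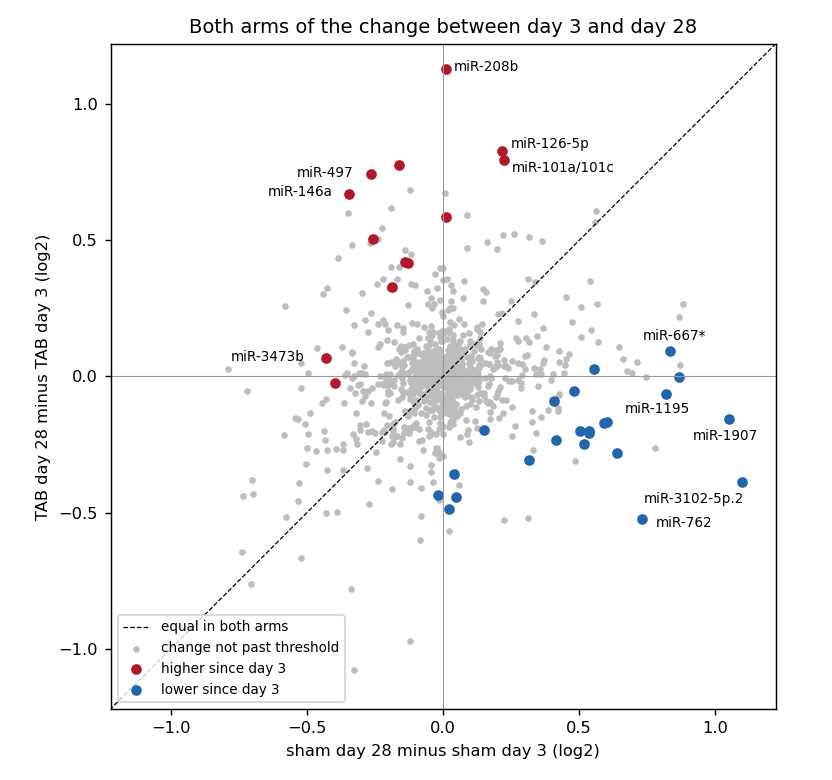
Day 28 minus day 3 within TAB (y axis) against the same within sham (x axis), log2, for 928 miRNAs. Red points (13 higher relative to day 3) lie mostly high on the TAB axis, with miR-208b at 1.13 and 0.01, and blue points (23 lower) mostly to the right on the sham axis, with miR-3102-5p.2 at -0.39 and 1.10.

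MiR-3102-5p.2 had the largest fall. Its sham level was 11.05 and 11.05 on day 3 and 12.15 and 12.15 on day 28, and no earlier sham array was above 11.31. Its TAB level went from 10.91 and 11.00 to 10.47 and 10.67. The sham shift was 1.10 (adjusted p = 9.33e-05) and the TAB shift -0.39 (adjusted p = 0.0762), and together they gave a change of -1.48 ± 0.16 (adjusted p = 0.000315). MiR-762 crossed over: it was 0.52 higher after TAB on day 3 and 0.73 lower on day 28. TAB arrays went from 12.23 and 12.59 to 11.78 and 11.99, and sham arrays from 11.99 and 11.78 to 12.65 and 12.59. The TAB pair had been above the sham pair and came to lie below it, a change of -1.25 ± 0.17 (adjusted p = 0.00101). The day 28 difference of miR-762 also passed the 10-sample fit (adjusted p = 0.0463), the differences of days 3 to 14 having been between 0.44 and 0.68.

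MiR-1907 crossed over as well, from 0.39 to -0.82 with -0.24 and -0.50 on days 7 and 14, and its sham arrays rose by 1.05 (adjusted p = 9.33e-05). MiR-1195 went from 0.30 to -0.58 and miR-92a-2*, the passenger strand of miR-92a, from 0.11 to -0.76. In all 3 the TAB shift was small, between -0.16 and 0.00. MiR-744 (from 0.69 to -0.23), miR-494 (from 0.71 to -0.06), miR-326* (from 0.73 to -0.03) and miR-5126 (from 0.70 to -0.05) lost a day 3 rise without being called down. MiR-2861 went from 0.97 to 0.21. Altogether 15 of the 23 had been called up on day 3, and on day 28 there were 12 called down, 2 still called up and 9 not called.

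A smaller set fell within TAB. MiR-17, a cell cycle miRNA, measured 9.01 and 8.85 on the day 3 TAB arrays and 8.49 and 8.50 on day 28, below all 8 earlier TAB arrays, and sham moved by -0.02. It remained 0.99 higher than sham after 1.40 on day 3, a change of -0.42 ± 0.10 (adjusted p = 0.0409). MiR-21* fell by 0.49 in TAB (adjusted p = 0.000229) and miR-214* by 0.36 (adjusted p = 0.0124), with sham shifts of 0.02 and 0.04. MiR-423-3p also fell mainly in TAB, by 0.44 (adjusted p = 0.00567), with 0.05 in sham.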

How the data were processed

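Total RNA (2.5 µg per array) of mouse left ventricle was labelled with Cy5 and hybridized to Mouse & Rat miRNA OneArray v3 slides, and spots were quantified with GenePix 4.1. The deposited file holds raw spot intensities without background subtraction, 3 spots per probe, with spot flags. A second deposited table of processed intensities, which the authors' provider had filtered by flags and scaled to a shared 75th percentile, served as an alternative. The paper also describes a quantile normalization of technical replicates for the provider's data. This can narrow the spread between repeated arrays, so repeat-array counts from that table are not directly comparable with the others. From the raw intensities, the median of the 3 spots was taken for 1086 mouse probes, and 158 probes that the flags removed were left out. Values were converted to log2 and quantile-normalized over the 20 arrays.

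Tests used limma 3.58.1 in R 4.3.3 (lmFit and eBayes, 2-sided, Benjamini-Hochberg over 928 miRNAs) and were checked on simulated data. The 10-sample fit averaged the repeated arrays and had day as a block, surgery and surgery by day 28. The repeat-array test compared group means over 20 arrays with 10 residual degrees of freedom. P-values of the latter measure only the spread between repeated arrays. Groups follow the sample titles, which give 14 days for the TAB arrays whose condition label says 15.

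MiRNAs named were the 10 most raised and 10 most lowered on day 28 and for the change since day 3, among calls found on both arrays of the higher group, together with list members and 10-sample calls. Some others were named after their values were seen. Members and lists were chosen with earlier results of these data known. Alternatives covered scaling, background, flag filters, left-out arrays and days, and pairing by replicate number.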

Additional observations from a re-analysis of the deposited data

Results flagged for a closer look

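The difference between TAB and sham was not the same on day 28 as on day 3 for 36 miRNAs, by the repeat-array test of the change itself, and each is given with the day 28 difference minus the day 3 difference on the log2 scale. With the spread between days as error none of them passed.

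Those higher on day 28 were miR-208b (1.12), miR-146a (1.02), miR-497 (1.01), miR-199b* (0.94), miR-146b (0.76), miR-126-5p (0.61), miR-140 (0.57), miR-101a/miR-101c (0.57), miR-1949 (0.56), miR-335-5p (0.55), miR-199a-3p/miR-199b (0.52), miR-3473b (0.50) and miR-466o-3p (0.37). The day 28 difference was the highest of the 5 days for 12 of the 13, and for 184 of all 928 miRNAs. The 13 were selected on the day 28 difference minus the day 3 difference. Their share is therefore partly fixed by the selection, and setting it beside all miRNAs is not a test.

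Those lower by more than 0.7 were miR-3102-5p.2 (-1.48), miR-762 (-1.25), miR-1907 (-1.20), miR-744 (-0.92), miR-1195 (-0.88), miR-92a-2* (-0.87), miR-494 (-0.77), miR-326* (-0.76), miR-2861 (-0.76), miR-5126 (-0.74), miR-667* (-0.74), miR-1931 (-0.73) and miR-3104-5p (-0.70). Smaller falls were those of miR-346* (-0.65), miR-23a* (-0.62), miR-1224 (-0.54), miR-1946a/miR-1946b (-0.53), miR-21* (-0.51), miR-5130 (-0.50), miR-423-3p (-0.49), miR-17 (-0.42), miR-214* (-0.40) and miR-342-5p (-0.35). The day 28 difference was the lowest of the 5 days for 21 of the 23, and for 190 of all 928 miRNAs. The same limit holds here, because the 23 were selected on the day 28 difference minus the day 3 difference.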

How the results depend on the processing

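Counts are given as raised and lowered, in the order 10-sample fit, repeat-array test of day 28, repeat-array test of the change. They were 19 and 16, 168 and 215, and 13 and 23. The 75th percentile scaling gave 97 and 46, 412 and 135, and 5 and 9. No scaling gave 0 and 0, 86 and 293, and 66 and 0. Separate targets for TAB and sham gave 435 and 56, 578 and 138, and 12 and 17. The processed table gave 88 and 37, 550 and 150, and 29 and 255. After normexp the 10-sample fit called 19 and 7. It called 1 and 0 once day 3 was dropped, 7 and 0 for day 5, 2 and 0 for day 7, and 46 and 41 for day 14, when the change counts were 20 and 26. The rule of the methods, 2 SD of all log2 ratios with no test, gave 46 and 14. The 10-sample counts of changed miRNAs were 0 in every setting.

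Leaving out arrays gave ranges of 4 to 25 and 1 to 19 in the 10-sample fit and of 4 to 18 and 8 to 33 for the change. For the repeat-array test of day 28 they were 127 to 138 and 139 to 162 without a day 28 array, and 167 to 178 and 203 to 219 without a day 3 array. Single arrays of days 5, 7 and 14 were not left out. Same-numbered TAB and sham arrays correlated in their deviations at r = 0.14, 0.18 and 0.14 on days 5, 7 and 28 but at -0.01 and -0.04 on days 3 and 14, so the numbers were not taken to pair the arrays. With the replicate number as a block within days the repeat-array counts were 162 and 207, and 10 and 14.

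Differences near 0 turned sign: miR-208a-3p ranged from -0.054 to 0.118 and miR-378 from -0.077 to 0.089 when arrays were left out, and without scaling miR-3107/miR-486 was at -0.19 and the changes of miR-1224 and miR-1946a/miR-1946b at 0.0052 and 0.0066. All 47 results of the 10-sample fit kept their direction, but 0 of 35 calls held in all 17 settings. Of 62 repeat-array calls of day 28, 47 held in all 16 settings, and of 36 changes 1 (miR-208b) held in all 19. A cause was not tested. Low signal limits 272 miRNAs found on no day 28 array.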
